A study of Mus musculus with 16 samples.

Results

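Non-dividing CD8+ T cells from accepted mouse kidney allografts were compared between 1 and 3 weeks after transplantation. A cell was included when it held at least 1 UMI (unique molecular identifier, standing for 1 captured RNA molecule) of Cd8a or Cd8b1 and no UMI of Cd4 or of the 6 cell-cycle genes Mki67, Top2a, Birc5, Pclaf, Stmn1, and Ube2c. The rule kept 23451 of the 38673 cells in the CD8 matrices of these grafts, and the study's 9 CD8 matrices hold 72639 cells. At 1 week 5627 of 16467 cells were kept, and at 3 weeks 17824 of 22206. The 9 genes of the rule are left out of every count below, since their values follow from the choice of cells.

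DBA/2J (H2d) kidneys had been placed in male, wild-type C57BL/6J (B6) recipients whose own kidneys were removed, a strain combination in which the graft is accepted without immunosuppression. The 2 groups shared donor, recipient, genotype, and the absence of treatment, and differed in the time of collection. Grafts were perfused and digested with collagenase, viable CD45+ cells were sorted, and droplet 3′ libraries were made. The sort does not separate donor from recipient leukocytes, and the ages of the mice are not given in the sources used here. Library tags in the cell barcodes marked 3 libraries at 1 week and 5 at 3 weeks. The study's methods give the same numbers of mice, so each library was taken as a mouse. Week and library preparation cannot be told apart in this design, and the p values measure the spread between these libraries.

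CD8+ T cells that enter a tissue after activation divide, then either die, recirculate, or persist. Cells that persist as residents are known for integrins that hold them to epithelium and matrix, and for the loss of the receptors and transcription factors that take T cells back to blood and lymph. Cells under long antigen exposure are known for inhibitory receptors such as PD-1, and some CD8+ T cells with CD122 (Il2rb) and FGL2 are described as regulatory.

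The share of dividing cells, those with a UMI of any of the 6 cell-cycle genes, was 43.7%, 44.6%, and 72.5% of CD8+Cd4- cells in the 3 libraries of 1 week, against 14.4% to 18.7% in the 5 of 3 weeks. A deeper cell is more likely to show such a UMI, and with every cell thinned to 1000 UMIs the shares were 27.8% to 56.6% and 6.90% to 8.07%. The non-dividing cells gave 3715907 to 4971518 UMIs per library at 1 week and 7871163 to 8755841 at 3 weeks, with medians per cell of 1681 to 3114 and 1947 to 2951 UMIs. The dividing cells left out had medians of 3105 to 5303.5 UMIs at 1 week and 2119 to 3179 at 3 weeks. The cells kept were thus shallower than those left out, and more so at 1 week. Dividing cells in which no UMI of the 6 genes was caught may remain, and their number was not measured directly. Of 2281, 1467, and 1879 cells kept at 1 week, 1659, 995, and 1296 also lacked a UMI of 12 further cell-cycle genes. At 3 weeks 1957, 2842, 3182, 2529, and 2846 of 2717, 3671, 4143, 3399, and 3894 cells did. Whether the kept cells with such a UMI were dividing was not tested. Mitochondrial genes took 4.04% to 4.87% of UMIs at 1 week and 2.04% to 2.37% at 3 weeks, and ribosomal protein genes 30.2% to 32.5% and 26.5% to 27.9%. Any 2 graft libraries shared at most 0.411% of their barcodes.

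The cells carried the T cell markers Cd3d, Cd3e, Cd3g, and Trac, which the rule did not use, at both weeks. Trac had the lowest value of these and ran from 463 to 589 CPM (UMIs of a gene scaled to a library total of 1000000 UMIs) at 1 week and from 674 to 747 CPM at 3 weeks. With Cd8a and Cd8b1, the 6 CD8 T cell markers summed to 5630 to 7100 CPM at 1 week and 7674 to 8138 CPM at 3 weeks. The rule required Cd8a or Cd8b1, so this sum follows in part from the choice of cells. The 3 CD4 T cell markers summed to 3.42 to 8.88 and 1.14 to 2.56 CPM. Of these the rule removed Cd4, Cd40lg stayed at or below 1.39 CPM, and Foxp3 made up the rest. Markers of other cells were low but moved with the week. The 4 B cell markers summed to 8.45 to 11.4 CPM at 1 week and 11.8 to 26.8 CPM at 3 weeks, the 4 NK cell markers to 7.44 to 12.3 and 12.5 to 31.4 CPM (mostly Eomes, which CD8 T cells also express and which was not called, at 7.24 to 10.0 and 6.42 to 27.9 CPM), and the 2 gamma-delta T cell markers Trdc and Tcrg-C1 to 6.84 to 10.3 and 18.5 to 35.0 CPM. The 20 kidney parenchyma markers summed to 28.6 to 35.6 CPM at 1 week and 63.6 to 75.4 CPM at 3 weeks, of which Epcam alone was 18.6 to 22.5 and 48.3 to 60.0 CPM. The 5 myeloid markers overlapped, at 55.5 to 163 and 64.6 to 169.7 CPM, and the 2 neutrophil markers stayed at or below 1.91 CPM. The 2 red cell markers were at or below 0.201 CPM at 1 week and ran from 0.115 to 52.0 CPM at 3 weeks. No marker of these lists was at 0 in all 8 libraries, apart from Cd4, which the rule removed. The part of these other cells in the changes below was not tested except by leaving out every cell with a UMI of 10 such markers, which is cited where it bears on a gene.

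With plain library totals, 6127 of 11044 genes tested (55.5%) were higher at 3 weeks and 1662 (15.0%) were lower, at an adjusted p under 0.05 (quasi-likelihood F test of edgeR, adjusted after Benjamini and Hochberg over all genes). This split was not centered. The median log2 fold change over all genes was 0.48 with plain totals and 0.03 with TMM factors, which center the bulk of genes, and TMM called 3182 genes higher (28.8%) and 3293 lower (29.8%). The shift varied with intron length, and whether intronic reads were counted is not given in the sources used here. Over 10 groups of genes ordered by it, the median was 0.32 in the first, lowest in the second, at 0.20, and highest in the last, at 0.80, and in the spleen cells described below it was 0.01 in the first and 0.41 in the last. In what follows, rose and fell are used only for genes called in the same direction under all 4 scalings tried, namely plain totals, TMM, totals without ribosomal protein and mitochondrial genes, and an offset that removes the shift of genes of like intron length. That was so for 2631 genes that rose (23.8%) and 1661 that fell (15.0%), and these 2 percentages are the background for every list below. The granule and killing, transcription factor, interferon, NK-type receptor, and TGF-beta lists lay near it in both directions, so their members are given as single genes. Fold changes are log2 values for plain totals unless another scaling is named, and list members named beyond the rule given with the processing were chosen after their values were seen. Itga1, Itgae, Cxcr6, Runx3, Id2, Bcl2, Btg1, Cd7, Fgl2, Il2rb, Pdcd1, Lag3, Tox, Prf1, Gzmb, Ifng, Ccl5, Plac8, Nme2, Ppia, Hist1h1b, Klf2, Tcf7, Lef1, Ccr7, and Il7r are genes that the study itself named from CD8 cells of this series, so their values here are not independent evidence. It named Klf2, Tcf7, Lef1, Ccr7, and Il7r for a later week. The study described Gzmb and Ifng as lower by 3 weeks in CD8 clusters that include dividing cells. Here Gzmb and Ifng, the latter not called, were at 0.58 and 0.21 with plain totals and at 0.13 and -0.24 with TMM.

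Libraries of the 2 weeks did not overlap in CPM for 5707 genes higher at 3 weeks (51.7%) and 1494 lower (13.5%). The 12 genes at the upper end, among called genes of this kind with a mean of at least 100 CPM, encoded integrins of resident T cells, receptors of the NK cell and killing type, a survival factor, and a brake on cytokine signaling. Itga1 encodes CD49a, the integrin alpha chain that binds collagen IV (chr13:114953096-115101964 of GRCm38, minus strand). It had 75.7, 65.8, and 40.9 CPM in the 3 libraries of 1 week and 419, 411, 443, 400, and 409 CPM in the 5 of 3 weeks, a 6.85-fold difference in means and a log2 fold change of 2.77 ± 0.14 (SE). Itgae, which encodes CD103, the alpha chain that pairs with Itgb7 to bind E-cadherin (chr11:73090583-73147446, plus strand), had 66.8, 56.7, and 34.7 CPM at 1 week and 259, 256, 262, 234, and 229 CPM at 3 weeks, a log2 fold change of 2.22 ± 0.14. Both integrins were lowest in the third library of 1 week, the one with the most dividing cells, and without that library their log2 fold changes were 2.56 and 2.01. With the intron offset and all libraries they were 2.00 and 1.65.

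Bcl2, the antiapoptotic protein of mitochondria (chr1:106538178-106714274, minus strand), had 163, 150, and 118 CPM at 1 week and 907, 778, 801, 883, and 875 CPM at 3 weeks. Its log2 fold change was 2.56 ± 0.11 with plain totals and 1.795 with the intron offset. The lowest library of 3 weeks, at 778 CPM, was far above the highest of 1 week, at 163 CPM. Cd244a, which encodes the SLAM-family receptor 2B4, had 26.1, 27.2, and 20.2 CPM at 1 week and 151, 150, 161, 160, and 150 CPM at 3 weeks, a log2 fold change of 2.65 ± 0.11. The values within a week lay close together, and the adjusted p by edgeR was 7.36e-12. Fgl2, a prothrombinase and secreted ligand of inhibitory Fc receptors (chr5:21372642-21378374, plus strand), had 86.4, 85.7, and 53.3 CPM at 1 week and 330, 387, 400, 377, and 446 CPM at 3 weeks, a log2 fold change of 2.36 ± 0.14. Without cells holding a UMI of another cell type's markers it was 2.38.

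Cish, a feedback inhibitor of cytokine and T cell receptor signaling, rose from 36.0 ± 5.90 to 202 ± 18.7 CPM (SD, n = 3 and 5 here and below). Tnfsf10, the death ligand TRAIL, rose from 47.3 ± 11.4 to 199.7 ± 9.44 CPM, and Fcer1g, a signaling adaptor of NK and Fc receptors, from 114 ± 33.6 to 501 ± 137 CPM. Fcer1g differed among the libraries of 3 weeks, from 305 CPM in the first to 630 in the third, and its log2 fold change was 2.13 and, without cells holding a UMI of another cell type's markers, 2.16. The remaining members were Hspa1b, a heat shock protein described below, Padi2, a peptidylarginine deiminase, Osbpl3, an oxysterol-binding protein, and Zfp652, a zinc finger repressor, with log2 fold changes of 2.36, 2.35, 2.07, and 2.23. All 12 were called higher in each of the 20 settings run, and the smallest value of any was 1.30, for Osbpl3 under the intron offset.

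**Figure D1:**
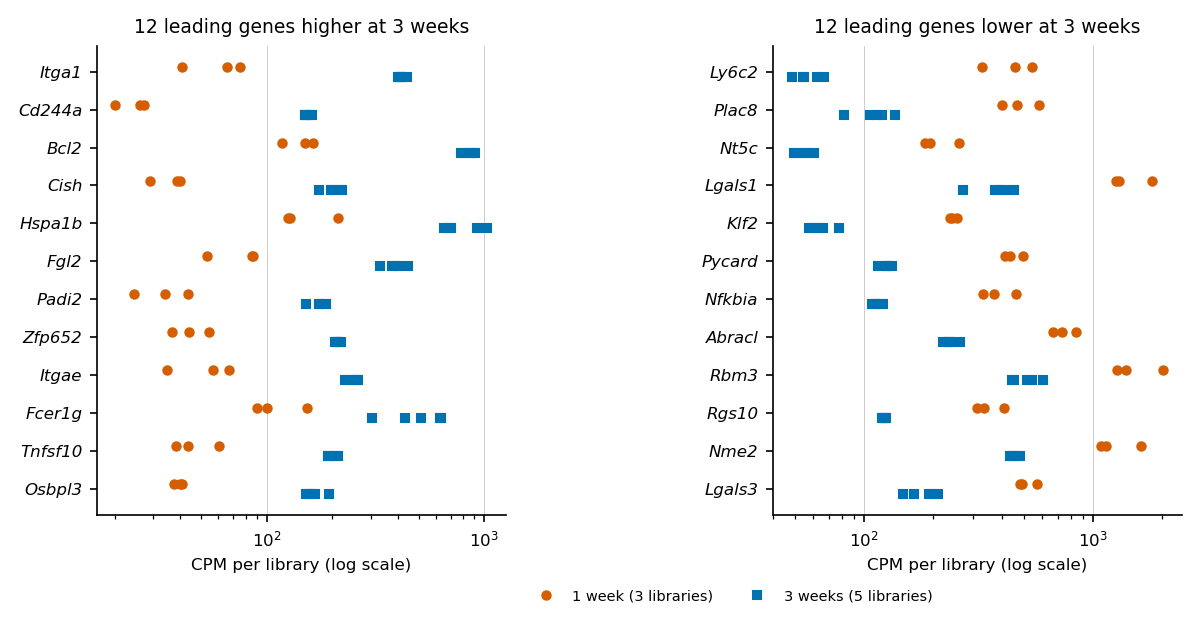
CPM of the 12 leading genes higher (left) and the 12 lower (right) at 3 weeks in each library of non-dividing graft CD8 cells, on a log scale, with circles for the 3 libraries of 1 week and squares for the 5 of 3 weeks. The genes were chosen among those whose libraries do not overlap between weeks, so the gap between weeks follows from the choice. Itga1 runs from 40.9 to 75.7 CPM at 1 week and from 400 to 443 CPM at 3 weeks, and Ly6c2 from 326 to 538 and from 48.2 to 66.6 CPM.

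The 12 genes at the lower end encoded a surface antigen of circulating memory T cells, galectins, a trafficking transcription factor, and an NF-kappa-B inhibitor. Ly6c2, a surface antigen of effector and central memory CD8 T cells (chr15:75108158-75111970, minus strand), had 538, 455, and 326 CPM at 1 week and 66.6, 62.5, 54.4, 54.7, and 48.2 CPM at 3 weeks, 7.67-fold lower in means, with a log2 fold change of -2.94 ± 0.13. Ly6c2 has a near-identical neighbor, Ly6c1, so that its reads may be split between the copies. Klf2, the transcription factor that keeps T cells recirculating (chr8:72319033-72321656, plus strand), had 254, 243, and 238 CPM at 1 week and 77.5, 66.3, 59.6, 62.9, and 57.3 CPM at 3 weeks, a log2 fold change of -1.92 ± 0.09. The 3 libraries of 1 week were alike in Klf2. Its log2 fold change was -1.40 with dividing cells kept and -2.07 when 12 further cell-cycle genes were added to the rule.

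Lgals1 and Lgals3, which encode galectin 1 and galectin 3, fell from 1450 ± 305 to 380 ± 68.2 CPM and from 510 ± 48.4 to 182 ± 25.2 CPM. Nfkbia, the inhibitor that holds NF-kappa-B in the cytoplasm, had 330, 370, and 460 CPM at 1 week and 108, 113, 112, 121, and 118 CPM at 3 weeks, a log2 fold change of -1.76 ± 0.09. Plac8, a small cysteine-rich protein of activated and effector lymphocytes, Pycard, the inflammasome adaptor ASC, and Rgs10, a regulator of G-protein signaling, fell by 2.11, 1.83, and 1.52 on the log2 scale. Nt5c, a nucleotidase, Nme2, a nucleoside diphosphate kinase, Abracl, an actin regulator, and Rbm3, a cold-inducible RNA-binding protein, fell by 1.96, 1.49, 1.65, and 1.61. All 12 were called lower in each of the 20 settings, with Rgs10 the least changed, at -1.17.

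Residency and adhesion genes moved in both directions, with integrin alpha chains of epithelial residence and CXCR6 among the genes that rose. Of 17 list members tested, 8 rose and 4 fell, and the list's median log2 fold change was 0.54 against 0.48 for all genes. Cxcr6, the receptor for the chemokine CXCL16, had 293, 310, and 179 CPM at 1 week and 770, 637, 673, 670, and 635 CPM at 3 weeks, a log2 fold change of 1.38 ± 0.14. Rgs1, which dampens signals of egress receptors, Cdh1, E-cadherin itself, Itgb2, the beta chain of LFA-1, Rgs2, and Cd69, the membrane protein that pulls S1PR1 off the surface, also rose, by 1.15, 2.41, 0.93, 0.79, and 0.81 on the log2 scale. Cdh1 had means of 8.72 CPM at 1 week and 47.7 CPM at 3 weeks. The kidney marker Epcam was also higher at 3 weeks, with a log2 fold change of 1.28, and the part of kidney cells in Cdh1 was not tested. The beta chains Itgb7 and Itgb1 fell by 1.04 and 0.66, as did Ly6c2 and the tetraspanin Cd9, which had 33.8, 34.0, and 40.4 CPM at 1 week and 1.52 to 2.85 CPM at 3 weeks. Itgb7 therefore moved opposite to its partner Itgae. Itga4 and Cd44, which are shared by most activated T cells, did not pass the test with plain totals, with log2 fold changes of -0.06 and -0.04, whereas TMM called both lower, at -0.52 and -0.49.

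Several chemokine and egress receptors, Gpr183 among them, were lower at 3 weeks. Of 9 chemokine and egress receptors tested, 0 rose and 4 fell, with a list median of -0.36. Gpr183, the oxysterol receptor that guides cells to follicle edges, had 157, 151, and 145 CPM at 1 week and 30.3, 40.3, 41.6, 31.2, and 33.4 CPM at 3 weeks, a log2 fold change of -2.09 ± 0.10. Gpr18, S1pr4, and the inflammatory chemokine receptor Ccr2 fell by 1.47, 0.91, and 0.55. Cx3cr1, a marker of circulating effector cells, did not pass the test with plain totals, at 10.5 to 19.1 CPM and 10.0 to 17.8 CPM and a log2 fold change of -0.30, whereas TMM called it lower, at -0.75.

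Of 10 members of the TGF-beta pathway tested, 3 rose and 1 fell, with a median of 0.66. The 3 were Skil, a target and repressor of SMAD proteins, Smurf2, a ubiquitin ligase of the pathway, and Itgav, an integrin alpha chain that activates latent TGF-beta, with log2 fold changes of 1.43 ± 0.11, 1.32 ± 0.14, and 1.28 ± 0.16. Tgif1, a corepressor, fell by 0.62. The receptors Tgfbr1 and Tgfbr2, counted with the cytokine receptors, rose by 1.65 and 1.07.

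Naive and stem-like genes had the lowest median of the 25 lists, a log2 fold change of -2.99. Of 16 members tested 12 fell and 0 rose. Tcf7, which encodes TCF1, the factor of naive and stem-like T cells (chr11:52252371-52283014, minus strand), had 133, 98.2, and 149 CPM at 1 week and 14.8, 9.02, 10.9, 11.3, and 8.57 CPM at 3 weeks, 11.6-fold lower. Dapl1, a gene of quiescent and stem-like T cells (chr2:59484653-59505020, plus strand), had 108, 79.1, and 82.9 CPM at 1 week and 0.582, 1.78, 1.72, 2.65, and 1.49 CPM at 3 weeks, a log2 fold change of -5.77 ± 0.19. Slamf6, a surface marker of stem-like cells, and Ccr7, the lymph node homing receptor, fell by 3.67 and 3.70, the egress receptor S1pr1 by 3.30, and Lef1, the partner of TCF1, by 2.89.

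Myb, Id3, Klf2, Klf3, Bach2, and Nsg2 made up the rest of the 12. They encode transcriptional regulators, apart from the neuronal vesicle protein Nsg2, and their log2 fold changes ran from -4.29 for Myb to -1.15 for Bach2. The 4 members that did not fall were Ets1, at 0.09, and Il7r, Foxo1, and Foxp1, at 0.57, 0.56, and 0.62 with plain totals. Il7r overlapped between weeks, with 143, 110, and 195 CPM at 1 week and 328, 230, 200, 169, and 179 CPM at 3 weeks. In bulk sums of a library, fewer cells with a transcript and less transcript per cell cannot be told apart.

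**Figure D2:**
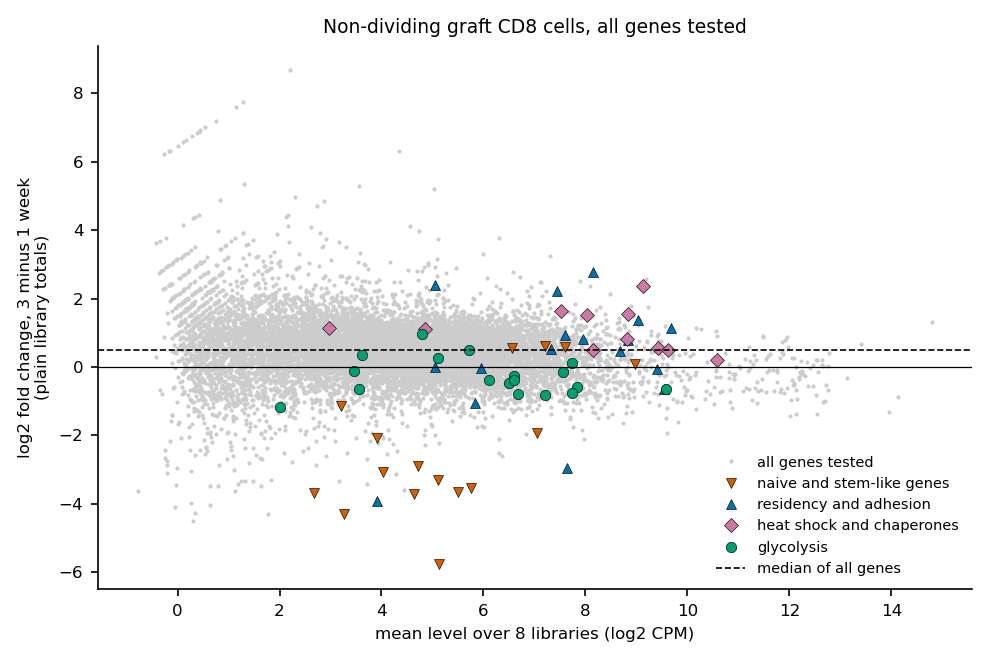
Log2 fold change (3 minus 1 week, plain library totals) against mean level over the 8 libraries (log2 CPM) for all 11044 genes tested, with members of 4 lists marked and the median of all genes, 0.48, as a dashed line. Of the 16 naive and stem-like genes 12 lie below zero, down to -5.77 for Dapl1, and 4 lie at or above it, heat shock genes lie at or above zero, and most glycolysis genes lie below the dashed line.

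Of 19 granule and killing genes 3 rose and 3 fell, with a median of 0.43. Fasl, the Fas ligand, had 63.1, 54.9, and 41.4 CPM at 1 week and 144, 196, 205, 194, and 195 CPM at 3 weeks, a log2 fold change of 1.81 ± 0.13. Prf1, the pore-forming perforin, had 60.1, 53.3, and 42.8 CPM at 1 week and 139, 132, 123, 120, and 145 CPM at 3 weeks, a log2 fold change of 1.33 ± 0.11. Gzmm, a granzyme, fell by 2.65 from a low level of 5.11 to 7.85 CPM, and Srgn, the granule proteoglycan, and Serpinb6b fell by 0.29 and 0.39.

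Gzmb, the main granzyme of cytotoxic T cells, had 594, 646, and 499 CPM at 1 week and 692, 884, 1006, 827, and 933 CPM at 3 weeks. Its log2 fold change was 0.58 with plain totals, near the median of all genes, and 0.13 with TMM. With dividing cells kept it was 0.16. Gzma had 158 to 224 CPM at 1 week and 135 to 420 CPM at 3 weeks and did not pass the test.

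Of 14 cytokines and chemokines 2 rose and 4 fell, with a median of 0.27. Csf1, the growth factor of macrophages, had 5 UMIs in all over the 3 libraries of 1 week and 1353 over the 5 of 3 weeks, a ratio of CPM of 83.9 with a 95% interval of 35.9 to 259 (exact binomial, given the sum of both counts), which covers counting error only. Its levels were 0.201 to 0.699 CPM at 1 week and 24.7 to 43.3 CPM at 3 weeks. Tnf rose by 1.17, from at most 13.7 CPM in any library of 1 week to 25.5 to 31.7 CPM. Xcl1, the chemokine that attracts cross-presenting dendritic cells, lymphotoxin alpha (Lta), Cxcl10, and Il10 fell by 0.44, 1.02, 0.69, and 1.34.

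Ifng did not pass the test. It had 181, 178, and 136 CPM at 1 week and 217, 173, 181, 206, and 179 CPM at 3 weeks, and its log2 fold change was 0.21 with plain totals and -0.24 with TMM. Ccl5, the most abundant chemokine of these cells, had 8920, 11900, and 2955 CPM at 1 week and 11660 to 13590 CPM at 3 weeks. The third library of 1 week was the lowest, and the second lay within the range of 3 weeks. The log2 fold change was 0.66 with plain totals and 0.27 without the third library.

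Among inhibitory receptors, PD-1 and the 2B4 receptor were higher at 3 weeks and CTLA-4 was lower. Of 15 tested 6 rose and 3 fell, with a median of 0.43. Pdcd1, which encodes PD-1, had 269, 275, and 334 CPM at 1 week and 380, 640, 510, 456, and 570 CPM at 3 weeks, a log2 fold change of 0.81 ± 0.13 with plain totals and 0.35 with TMM. Cd96, Cd101, the ectonucleotidase Entpd1 (CD39), and Vsir (VISTA) rose with Pdcd1 and Cd244a, by 1.03, 1.35, 1.31, and 0.89.

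Ctla4, the competitor of CD28 for its ligands, had 214, 224, and 241 CPM at 1 week and 122, 132, 123, 114, and 121 CPM at 3 weeks, a log2 fold change of -0.89 ± 0.08. Cd200 and Btla fell by 1.98 and 1.50. Lag3, a receptor for class II molecules, was higher with plain totals, at 0.41 ± 0.12, and at -0.04 with TMM, so that its direction depends on the scaling. Its level was 94.5 to 106 CPM at 1 week and 121 to 177 CPM at 3 weeks.

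Of 22 effector and exhaustion transcription factors 6 rose and 4 fell, with a median of 0.68. Runx3, which drives CD8 lineage and residency programs, had 190, 189, and 188 CPM at 1 week and 564, 740, 711, 598, and 653 CPM at 3 weeks, a log2 fold change of 1.79 ± 0.10. Id2, an inhibitor of E proteins in effector cells, the Ikaros-family factor Ikzf3, Nr4a2, and Zfp683, which encodes the residency factor HOBIT, rose by 1.50, 1.24, 1.30, and 1.43, and Hic1, a transcriptional repressor, by 2.06. Batf, Irf4, and Nr4a1, which T cell receptor signals induce, fell by 1.21, 0.90, and 1.06, and Tox2 by 0.76. Nr4a2 and Nr4a1, members of 1 family, thus moved in opposite directions. Tox itself had 164 to 216 CPM at 1 week and 293 to 399 CPM at 3 weeks, with a log2 fold change of 0.78 with plain totals and 0.02 with the intron offset, which does not count as a rise here.

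Genes linked to regulatory CD8 cells did not move as 1 group. Of 14 tested 3 rose and 8 fell, with a median of -0.66. Besides Fgl2, Il2rb, the beta chain of the IL-2 and IL-15 receptors (CD122), had 281, 256, and 290 CPM at 1 week and 573, 650, 733, 669, and 745 CPM at 3 weeks, a log2 fold change of 1.29 ± 0.10. Cd38 rose by 1.06. The 8 that fell included Foxp3, the factor of regulatory T cells, at 2.61 to 8.07 CPM at 1 week and 0.571 to 1.75 CPM at 3 weeks, which is also a CD4 T cell marker and whose part from CD4 T cells was not tested, the costimulatory receptors Tnfrsf4 (OX40), Tnfrsf18 (GITR), and Icos, with log2 fold changes of -2.24, -0.33, and -0.68, and both galectins. Klra1 and Klra7, Ly49 receptors, fell by 1.41 and 1.00, but members of this family share sequence and their reads may be split.

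Of 19 cytokine receptors 7 rose and 5 fell, with a median of 0.31. Il21r had 89.2, 79.3, and 58.7 CPM at 1 week and 185, 199, 193, 167, and 208 CPM at 3 weeks, a log2 fold change of 1.33 ± 0.12. Il15ra, which presents IL-15, Il4ra, and both chains of the IL-12 receptor, Il12rb1 and Il12rb2, rose by 1.78, 1.39, 1.02, and 1.84. Il2ra, the high-affinity IL-2 receptor chain of activated cells, fell by 2.08, the IL-18 receptor chains Il18r1 and Il18rap by 1.31 and 1.09, and the IL-6 receptor chains Il6ra and Il6st by 1.82 and 0.76. The subunits of a receptor moved in the same direction for IL-12, IL-18, IL-6, and TGF-beta, whereas the IL-2 receptor chains Il2ra and Il2rb moved apart.

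Of 15 genes of cytokine signaling feedback 5 rose and 2 fell, with a median of 0.41. Besides Cish, Socs2 rose by 2.23 ± 0.19, from 4.63 to 9.08 CPM to 26.3 to 35.9 CPM, and Socs1, an inhibitor of interferon and gamma-chain signals, by 1.11 ± 0.10. Dusp6, a phosphatase of ERK, and the kinase Pim2 rose by 1.38 and 1.15, and Socs3 and Stat5a fell by 0.72 and 0.32. Pim1 was not called with plain totals, at -0.06, and was called lower with TMM, at -0.51.

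Among NK-type receptors 4 of 13 tested rose and 2 fell, with a median of 0.65. Klrc2, which encodes the activating receptor NKG2C, had 72.7, 69.0, and 65.9 CPM at 1 week and 179, 150, 167, 145, and 173 CPM at 3 weeks, a log2 fold change of 1.23 ± 0.09. Klre1 and Klrb1c (NK1.1) rose by 1.59 and 1.76, and Klrk1, which encodes NKG2D, and Crtam fell by 1.21 and 1.15. Klrb1c is also an NK cell marker and stood at 0.201 to 3.23 CPM at 1 week and 2.33 to 7.88 CPM at 3 weeks, and it is 1 of the 10 markers whose cells were left out in the alternative above. Without those cells Klrc2 and Klre1 were at 1.24 and 1.73.

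Bcl2 was the 1 gene of the survival and death list that rose. Of 19 tested 9 fell, with a median of -0.20. The BCL2 relatives Bcl2a1b and Bcl2a1d, near-identical copies whose reads may be split, fell by 1.27 and 1.76. The death receptor Fas, the proapoptotic Bax, Bad, Bak1, and Bbc3, and the stress gene Gadd45b fell by 0.40 to 1.31. Mcl1, another antiapoptotic member, had 268 to 283 CPM at 1 week and 272 to 308 CPM at 3 weeks and was not called with plain totals, at 0.07, whereas TMM gave -0.39.

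Of 14 quiescence genes 7 rose and 1 fell, with a median of 0.63. Btg1, an antiproliferative factor that promotes mRNA deadenylation, had 968, 897, and 847 CPM at 1 week and 1836, 1997, 1726, 1937, and 1850 CPM at 3 weeks, a log2 fold change of 1.05 ± 0.08. Foxo3, a forkhead factor of resting cells, rose by 1.93 ± 0.14, Rbl2, a pocket protein of resting cells, by 0.91, and the translation inhibitor Pdcd4 by 0.89. Cdkn2d, an inhibitor of CDK4 and CDK6, was the member that fell, by 0.96. Cdkn1b was not called with plain totals, at 0.05, and was called lower with TMM, at -0.39.

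Cell-cycle genes that the rule did not use still differed between weeks in cells without a UMI of the 6 rule genes. Of 25 G2/M genes tested 0 rose and 11 fell, with a median of -0.30, and of 26 G1/S genes 4 rose and 6 fell, with a median of 0.19. Cks1b and Cks2, subunits of cyclin-dependent kinase complexes, fell by 1.81 and 1.32, and the histone Hist1h1b by 1.33. In the third library of 1 week Cks1b stood at 21.8 CPM, against 9.45 and 10.7 CPM in the other 2 and 3.61 to 4.67 CPM at 3 weeks. The 4 that rose included the cyclins Ccnd2 and Ccnd3 and their kinase Cdk6, by 1.12, 0.99, and 1.63.

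Keeping the dividing cells moved several of these values. With them, Cks1b was at -5.17, Hist1h1b at -4.86, Dut at -2.52 against -1.06, Pcna, the replication clamp, at -1.13 against 0.14, and Tubb5 at -1.74 against 0.10. Among the leading genes, Ly6c2 was at -2.33 with dividing cells and Klf2 at -1.40. Itga1 and Bcl2 were at 2.98 and 2.79 with them and at 2.83 and 2.52 when 12 further cell-cycle genes were added to the rule.

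Genes of glycolysis and growth fell more often than they rose. Of 18 glycolysis genes 11 fell and 1 rose, with a median of -0.38, and of 26 growth and MYC-linked genes 12 fell and 2 rose, with a median of -0.22. Ldha, which makes lactate, had 278, 264, and 324 CPM at 1 week and 141, 184, 176, 176, and 177 CPM at 3 weeks, a log2 fold change of -0.76 ± 0.09. Hif1a, the hypoxia factor, and Pgk1 fell by 0.81 and 0.80, and Pfkl, a phosphofructokinase, rose by 0.97. Npm1, a nucleolar chaperone, Eif5a, an elongation factor, and Ppia, cyclophilin A, fell by 0.82, 0.77, and 0.66. The amino acid transporter chain Slc3a2 and the nucleolar protein Nop56 rose, by 0.82 and 0.84.

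Of 20 genes of the S100, annexin, and cytoskeleton list 14 fell and 0 rose, with a median of -0.77. Pfn1, which encodes the actin-binding profilin 1, had 1405, 1413, and 1367 CPM at 1 week and 720, 637, 688, 694, and 679 CPM at 3 weeks, a log2 fold change of -1.03 ± 0.07. S100a10, the partner of annexin A2, and Emp3 fell by 1.24 and 1.05.

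**Figure D3:**
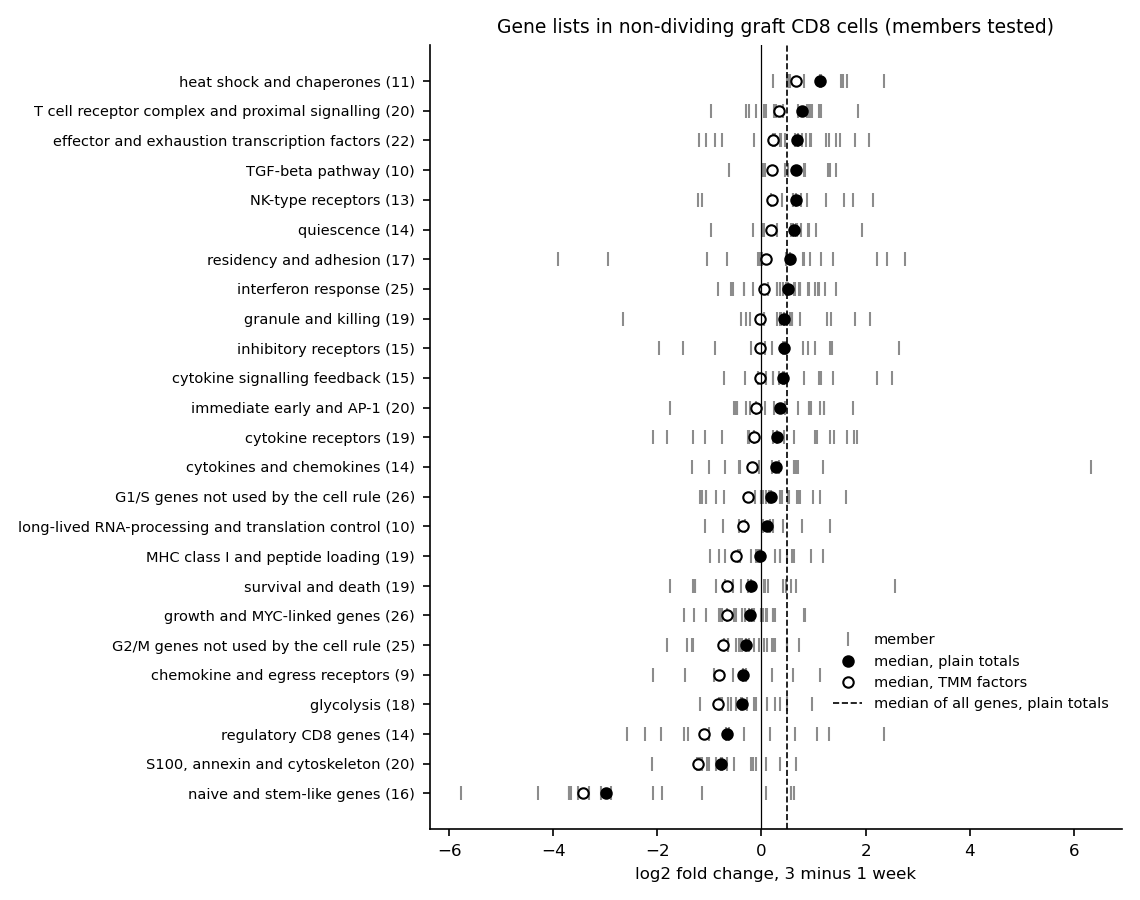
Log2 fold change (3 minus 1 week) of the tested members of 25 gene lists, one tick per member with plain totals, a filled circle at the list's median with plain totals, an open circle at its median with TMM factors, and a dashed line at the median of all genes with plain totals, 0.48. The number of members tested is in brackets. TMM moves every list's median to the left, and the naive and stem-like list is the farthest to the left with both, at -2.99 with plain totals.

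Of 25 interferon-induced genes 6 rose and 5 fell, shares near those of all genes, and the median of 0.51 was close to 0.48. The guanylate-binding proteins Gbp7 and Gbp4 and the signal transducer Stat2 rose by 0.92, 1.03, and 1.09, and Ifi27l2a, Bst2, and Zbp1 fell by 0.83, 0.59, and 0.34. In the class I pathway, with a median of -0.04, 2 of 19 rose, the transactivator Nlrc5 and the loading factor Tapbp, by 1.19 and 0.95. The 6 that fell were H2-T23, which encodes Qa-1, at -0.99 ± 0.12, and 5 genes of the immunoproteasome and its activator, among them Psme2 and Psmb9 at -0.71 and -0.82. H2 class I genes share sequence, so their reads may be split.

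Of 20 T cell receptor and proximal signaling genes 8 rose and 3 fell, with a median of 0.79. Cd3e had 751, 685, and 537 CPM at 1 week and 1198, 1538, 1518, 1504, and 1495 CPM at 3 weeks, a log2 fold change of 1.14 ± 0.11. Cd3d, which encodes another chain of the same complex, fell by 0.29. Cd7, a costimulatory receptor, the kinase Zap70, and Cd6 rose by 1.85, 0.88, and 1.10, and Cd28 and Cd2, costimulatory receptors, fell by 0.97 and 0.23. The nuclear noncoding RNAs Malat1 and Neat1, part of a list of long-lived RNAs and translation factors with a median of 0.10 in which 2 of 10 rose and 4 fell, rose by 1.31 and 0.79. The shift with intron length and the lower mitochondrial share at 3 weeks moved with these 2 RNAs, and the part of RNA quality was not tested.

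Immediate early genes split, with 8 of 20 that rose, 4 that fell, and a median of 0.35. Jun had 293, 278, and 145 CPM at 1 week and 800, 832, 891, 825, and 703 CPM at 3 weeks, a log2 fold change of 1.76 ± 0.16. Fosb and Dusp1, a phosphatase of MAP kinases, rose by 1.21 and 0.92, and Ier2, Zfp36, and Junb fell with Nfkbia, by 0.52, 0.47, and 0.22. The part of tissue digestion in the levels of these genes was not tested.

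Heat shock genes were higher as far as they were called. Of 11 tested 6 rose and 0 fell, with a median of 1.12 with plain totals and 0.67 with TMM. Hspa1b, an inducible HSP70 (chr17:34956436-34959238, minus strand), had 128, 212, and 126 CPM at 1 week and 1033, 706, 655, 688, and 927 CPM at 3 weeks, and its copy Hspa1a had 179, 254, and 184 CPM and 793, 516, 519, 524, and 681 CPM. The 2 copies are near-identical, so that reads may be split between them. Dnajb1, an HSP40 cochaperone, and Hsf1, the heat shock factor itself, rose by 1.52 ± 0.12 and 1.12 ± 0.11, Hsph1, an HSP110, by 1.65, and Hspa5, the chaperone of the endoplasmic reticulum, by 0.82. The first and the last library of 3 weeks had the 2 highest values of Hspa1b, Hspa1a, and Dnajb1. In the spleen cells described below, which were not digested with collagenase, Hspa1b had means of 0.0908 CPM at 1 week and 0.257 CPM at 3 weeks. The part of tissue digestion in the levels of these genes was not tested.

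Because heat shock genes are known targets of HSF1, which binds inverted repeats of GAA, the 250 bases upstream of the start were searched for GAANNTTC and TTCNNGAA, each of which reads the same on both strands. The RefSeq table of GRCm38.p6 held a promoter for 8 of the 11 list genes, and 5 of the 8 had at least 1 match, against 3932 of 27025 genes in the table (14.55%). A list of heat shock genes favors such matches by its choice, so this contrast says nothing about the change between weeks. The promoters of Hspa1b (chr17:34959239-34959488, minus strand) and Hsph1 (chr5:149636316-149636565, minus strand) are shown as examples of each kind of repeat among risen genes, with the match in capitals, 104 and 54 bases before the start.
Hspa1b: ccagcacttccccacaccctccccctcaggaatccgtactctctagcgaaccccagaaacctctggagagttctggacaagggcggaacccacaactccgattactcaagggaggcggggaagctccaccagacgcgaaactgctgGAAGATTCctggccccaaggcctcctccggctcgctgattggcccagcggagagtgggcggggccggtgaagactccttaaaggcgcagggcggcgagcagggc
Hsph1: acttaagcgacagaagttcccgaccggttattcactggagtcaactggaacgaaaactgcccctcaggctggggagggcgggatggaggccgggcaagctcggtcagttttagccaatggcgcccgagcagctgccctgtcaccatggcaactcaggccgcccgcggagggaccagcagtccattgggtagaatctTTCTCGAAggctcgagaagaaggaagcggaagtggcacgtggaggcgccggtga
Hspa1a, the copy of Hspa1b, held 1 match at the same distance, so that this pair counts as 2 of the 5. Dnaja1 and Dnajb6, which were not called under every scaling, held the other matches, and Dnajb1 and Hspa5, which rose, held no match of these letters in this window. A match is a description of the letters and not a binding site.

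The shares of cells with a UMI were compared after thinning each cell to 1000 UMIs, which left out 0 cells. Of 22 genes 17 differed with no overlap between weeks, each with the smallest p that 3 against 5 libraries allow in the two-sided exact permutation test, 0.0357, and an adjusted p of 0.0462 over the 22 genes. The adjusted value depends on how many genes reach that smallest p, and without thinning, where 15 did, it was 0.0524 for each and 0 genes were called. In CPM, libraries of the 2 weeks did not overlap for 51.7% of all genes tested, higher at 3 weeks, and for 13.5%, lower. Shares of cells were not taken over all genes, so the count of 17 does not set these 22 genes apart. Cells with a Bcl2 UMI were 13.6%, 12.3%, and 10.4% at 1 week and 53.4%, 50.3%, 49.5%, 52.5%, and 54.1% at 3 weeks. The shares at 1 week were near those of myeloid cells of rejecting kidney, 10.4%, and B cells of naive spleen, 15.9%, thinned in the same way. Rejecting kidneys were B6 grafts in DBA/2J recipients, and naive spleen came from mice without a graft. These comparison cells thus differ from the graft cells in design, and they may express a gene themselves, so their shares are not a floor. Cells with an Itga1 UMI went from 5.98% ± 1.89 to 32.1% ± 1.17, and cells with an Itgae UMI from 4.63% ± 1.24 to 19.3% ± 0.97. The UMIs per cell with a UMI were 1.05 and 1.31 for Itga1, and with so few UMIs a share follows the mean level, so it does not separate fewer expressing cells from less transcript per cell.

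Cells with a Tcf7 UMI were 12.2%, 8.73%, and 12.1% at 1 week and 0.883%, 0.545%, 0.917%, 1.15%, and 0.668% at 3 weeks. Tcf7 was found in 0.106% of myeloid cells of rejecting kidney and 0.217% of B cells of naive spleen thinned in the same way. Their medians before thinning were 2585 and 2736 UMIs. The Tcf7 share at 3 weeks was above both values, but these cells are not matched to the graft cells in design. Klf2 fell from 18.1% ± 0.90 of cells to 5.24% ± 0.28. Cells with an Fgl2 UMI went from 6.48% ± 1.61 to 29.4% ± 2.65, with 33.9% in myeloid cells, which express this gene themselves, and 0.301% in B cells. Il2rb went from 22.8% ± 2.22 to 44.3% ± 3.63, Cxcr6 from 19.5% ± 5.16 to 45.8% ± 2.84, and Pdcd1 from 23.5% ± 3.28 to 36.7% ± 5.99.

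Ccl5 was found in 69.8%, 77.2%, and 50.6% of cells at 1 week and in 94.9% to 96.5% at 3 weeks, while the UMIs per cell with a UMI were 14.5, 17.3, and 6.57 at 1 week and 12.1 to 14.3 at 3 weeks. The third library of 1 week was thus low in both the share and the level per positive cell, and the other 2 were low in the share. Gzmb, Gzmk, Havcr2, Cx3cr1, and Il7r overlapped between weeks and did not pass the test. Gzmb was found in 27.2% ± 3.29 and 35.7% ± 3.29 of cells. The shares of Havcr2 and Cx3cr1, at most 3.08% and 1.71%, lay below those in myeloid cells, 16.4% and 10.3%. They lay above those in B cells, 0.0334% and 0.0167%, so the myeloid shares are not a floor for these genes. The Ifng share passed the test, at 10.3% ± 1.71 and 13.9% ± 1.36, although the Ifng CPM did not. The Lag3 share was 9.22% ± 0.94 and 11.9% ± 1.36. Both shares lost the call without thinning, with p of 0.214 and 0.25 in the exact permutation test.

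**Figure D4:**
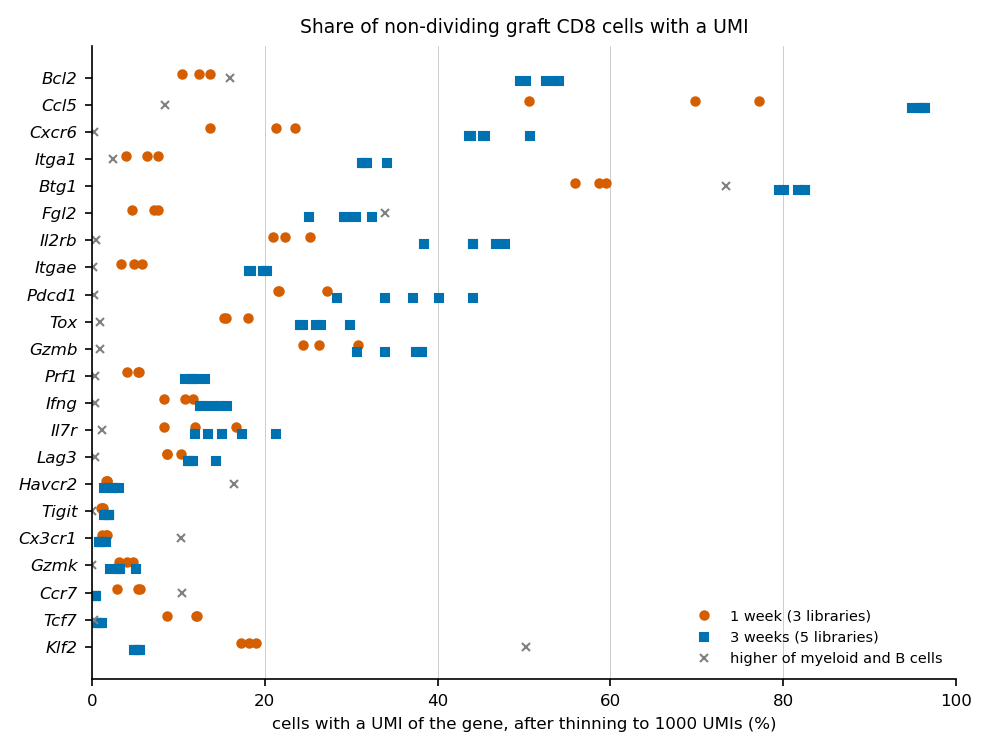
Percentage of non-dividing graft CD8 cells with at least 1 UMI of each of 22 genes after thinning every cell to 1000 UMIs, with circles for the 3 libraries of 1 week, squares for the 5 of 3 weeks, and crosses for the higher of the shares in myeloid and B cells of other matrices. Bcl2 runs from 10.4% to 13.6% at 1 week and from 49.5% to 54.1% at 3 weeks, Tcf7 lies near zero at 3 weeks, and the crosses of Fgl2 and Klf2 stand at 33.9% and 50.2%.

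CD8+ cells of the recipients' spleens, chosen by the same rule and collected at the same weeks (4284 cells in 3 libraries and 2337 in 5), were used to ask whether the change was larger or smaller in the graft. Among 10742 genes the graft change was above the spleen change for 2039 (19.0%) and below it for 681 (6.34%) by the interaction term of edgeR with plain totals, and for 947 (8.82%) and 1354 (12.6%) with TMM. Spleens were not digested with collagenase, so tissue and preparation cannot be told apart in the levels. The leading genes were chosen for their change in the graft, which by itself favors a larger change there than in the spleen, so their differences are given as values. Itga1 stood at 4.58 ± 2.53 and 3.39 ± 0.65 CPM in the spleen, and its change in the graft was above that in the spleen by 3.13 ± 0.43 on the log2 scale. Itgae changed by 0.78 in the spleen and Bcl2 by 0.76, and the differences from the graft were 1.44 ± 0.22 and 1.80 ± 0.15.

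Hspa1b, with a mean below 1 CPM in the spleen at both weeks, and Rbm3 did not pass the interaction test, with adjusted p of 0.91 and 0.052 by edgeR. Lgals3 was at -3.96 in the spleen, farther from zero than its -1.48 in the graft. Nfkbia stood at 193 ± 34.4 and 188 ± 30.0 CPM in the spleen, and Ly6c2 at 403 ± 68.8 and 419 ± 21.8 CPM, so that at 1 week Ly6c2 was at a like level in both tissues and at 3 weeks it was low in the graft.

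Of the 12 naive and stem-like genes that fell in the graft, 10 had values above zero in the spleen, while Id3 and Klf2 were at -0.76 and -0.65 there. Zero is not the center in the spleen, where the median of all genes was 0.20 with plain totals. The count above zero therefore does not show a rise of these genes there. The list's median change was -2.98 in the graft and 0.40 in the spleen, and 12 of its 16 members had a graft change below the spleen change, against 6.34% of all genes. Tcf7 had 354 ± 9.22 and 427 ± 9.78 CPM in the spleen, and Dapl1 346 ± 41.3 and 412 ± 53.5 CPM, with interaction terms of -3.80 ± 0.17 and -6.02 ± 0.24. Gzmb, Pdcd1, Lag3, and Ifng were low in the spleen at both weeks, at means of 20.2 CPM or less. Their changes there were -1.85, -1.85, -3.13, and -1.80 with plain totals, and their graft changes were above these by 2.43 ± 0.42, 2.66 ± 0.54, 3.54 ± 0.45, and 2.01 ± 0.28. The same 8 graft libraries enter this comparison and the one between weeks, so the graft values are not independent of those above.

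**Figure D5:**
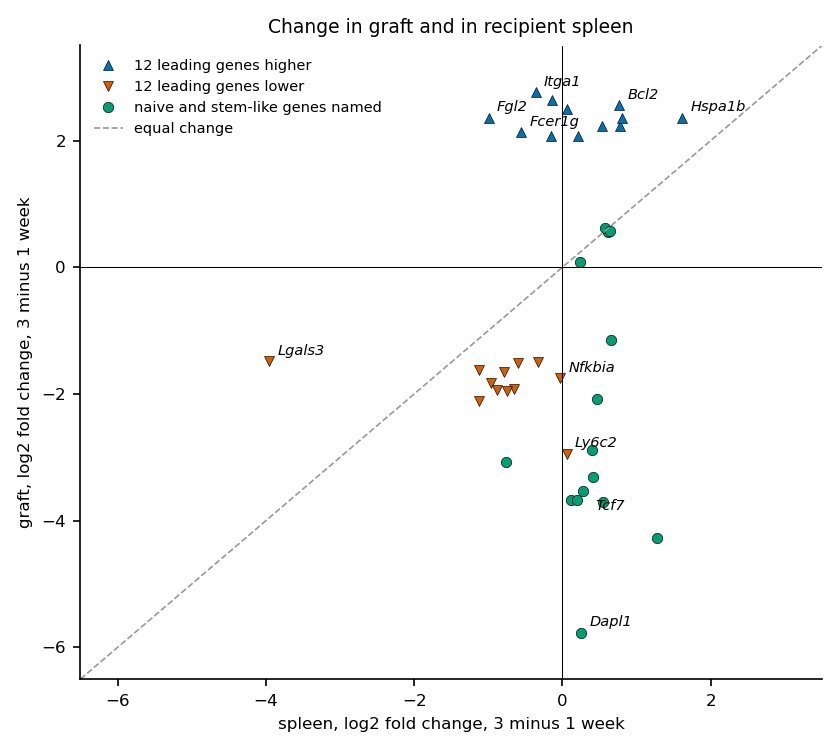
Log2 fold change (3 minus 1 week) in the graft against that in the recipient spleen, both from one fit over 16 libraries with plain totals, for the 24 leading genes and the naive and stem-like genes named in the text, with a dashed line where the changes are equal. Naive and stem-like genes such as Dapl1 lie at -5.77 in the graft and at 0.25 in the spleen, and Lgals3 lies left of the line, at -3.96 in the spleen and -1.48 in the graft.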

How the data were processed

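The authors deposited 1 matrix of counts (whole-number UMIs per gene and cell) for each tissue and week, made with Cell Ranger on the mouse build mm10 per the submitters' processing notes (versions not given in the sources used here). They had filtered cells, assigned cell types, and pooled the libraries of a condition, which the barcode tags separate. Per the rule in the report, UMIs were summed per library tag, and no doublet caller was run. Genes passing filterByExpr were tested with edgeR 4.0.16 (quasi-likelihood, plain library totals, biological coefficient of variation 0.0958) in R 4.3.3, with Benjamini-Hochberg adjustment. Alternatives were TMM, DESeq2 1.42.0, totals without ribosomal protein and mitochondrial genes, an intron-length offset, no low-count filter, other cell rules, thinning, and leaving out each library. Graft and spleen changes were compared by the interaction term of 1 fit over 16 libraries. Shares of cells were compared by the two-sided exact permutation test in scipy 1.17.1 with Python 3.11.15. Gene coordinates and intron lengths came from GENCODE M21 (GRCm38), which matched 98.88% of genes tested, and promoters from RefSeq GRCm38.p6.

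Named genes were the 12 at the upper and the 12 at the lower end of the log2 fold changes, among called genes that averaged 100 CPM or more and did not overlap between weeks, without the genes of the cell rule, mitochondrial, ribosomal protein, immunoglobulin, T cell receptor and hemoglobin genes, and unnamed models. In each list up to 4 members with the lowest adjusted p and up to 2 uncalled members with the highest level were added, as were genes the study names for CD8 cells of this series. Not every gene meeting the rule is described, some items are not reported here, and other list members were chosen after their values were seen. The cell rule, the members, and the lists were chosen with earlier results of these data known. On simulated counts with 200 changed genes, the fit between weeks recovered 100% of changes of 1 log2 unit, with 21 of 10702 unchanged genes called, and the interaction fit recovered 98%. The changed genes were drawn from genes above a minimum level, equally up and down, and most genes were left unchanged. In the data most genes were called and the median was not centered. These rates therefore do not carry over to the counts of calls above or to genes at low levels. Exact intervals and counts of UMIs cover counting error only.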

Additional observations from a re-analysis of the deposited data

Results flagged for a closer look

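In the 5 libraries of 3 weeks, 24 values stood apart from the other 4 libraries by Dixon's test, out of 201 genes, 22 shares of cells, and 4 library measures examined; chance alone gives such a value in about 1 of 20 groups. Of these, 19 belonged to the first library of 3 weeks, which was also the deepest, with a median of 2951 UMIs per cell against 1947 to 2187 in the others. It was the lowest library for Fasl (144 CPM), Ldha (141), Cd3e (1198), Ier2 (137), Junb (660), Slc3a2 (411), Dnajb6 (256), and Tnfrsf18 (65.4). It was the highest for Ikzf3 (358 CPM), Bcl2a1b (135), Bcl2a1d (51.2), Lag3 (177), Cxcr6 (770), Foxp1 (201), Il6st (16.8), and Zfp36 (69.3), and for the shares of cells with a Lag3 or Cxcr6 UMI, 14.4% and 50.6%. The part of depth in these values was not tested. Elsewhere, Cx3cr1 was highest in the second library (17.8 CPM), Trdc and the Itga1 share in the third (9.18 CPM and 34.1%), Epcam was highest in the fourth (60.0 CPM), and Il18r1 was lowest in the fourth (50.9 CPM).

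The change from 1 to 3 weeks differed between graft and spleen by the interaction term of edgeR with plain totals, at an adjusted p under 0.05, for the genes given here, against 19.0% of all genes above and 6.34% below. The leading genes were chosen for their change in the graft, so their differences are a description. Graft minus spleen, the log2 changes were higher by 3.13 for Itga1, 2.79 for Cd244a, 1.80 for Bcl2, 2.43 for Cish, 3.36 for Fgl2, 1.55 for Padi2, 1.70 for Zfp652, 1.44 for Itgae, 2.70 for Fcer1g, 1.86 for Tnfsf10, and 2.23 for Osbpl3. The difference was -3.00 for Ly6c2, -0.98 for Plac8, -1.21 for Nt5c, -1.05 for Lgals1, -1.27 for Klf2, -0.87 for Pycard, -1.73 for Nfkbia, -0.87 for Abracl, -0.92 for Rgs10, and -1.15 for Nme2. Lgals3 had a difference of 2.48, since its change was farther from zero in the spleen, at -3.96 with plain totals. Among other genes, Tcf7 and Dapl1 had differences of -3.80 and -6.02, and Gzmb, Ifng, Lag3, and Pdcd1 of 2.43, 2.01, 3.54, and 2.66.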

How the results depend on the processing

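Scaling set the balance of directions. Against 6127 genes higher and 1662 lower with plain totals, there were 2874 and 3152 by DESeq2, 3182 and 3293 with TMM, and 3079 and 3217 with the intron offset. Leaving out 1 library gave 5350 to 6126 higher and 1452 to 1671 lower. For the difference between graft and spleen, 2039 genes above and 681 below became 828 and 1391 by DESeq2, 947 and 1354 with TMM, 911 and 1371 with the intron offset, and 521 and 321 with cells thinned to 1000 UMIs, while 1099 were below with dividing cells kept. Leaving out 1 library gave 1520 to 2219 above and 572 to 700 below. Of 22 shares of cells 17 were called, but 0 without thinning and 0 with the wider exclusion of dividing cells, where 15 genes each reached the smallest exact p, 0.0357, for an adjusted p of 0.0524. Under DESeq2, TMM, and the intron offset, in that order, Ets1 turned to -0.36, -0.36, and -0.68, Mcl1 to -0.39, -0.39, and -0.19, and Cdkn1b to -0.40, -0.39, and -0.20. Under DESeq2 and TMM Lag3 turned to -0.040 in both, Pcna to -0.32 in both, and Tubb5 to -0.35 in both. With the intron offset Foxo1 and Foxp1 were at -0.14 and Dnajb6 at -0.20. With dividing cells kept, Pcna was at -1.13, Tubb5 at -1.74, and Itga4 at 0.34. The cause of these turns was not tested. The wider exclusion with the third library of 1 week left out was added after seeing the data and gave 5231 genes higher and 1360 lower. Graft and spleen tags of a week share numbers, and a replicate block on that number, added after seeing the data, gave 2194 genes above and 745 below, or 1062 and 1516 together with TMM. Among the leading genes it changed the call of Rbm3 alone, to an adjusted p of 0.00291 by edgeR. No label states the pairing, the deviations of same-numbered libraries correlated across genes at 0.0276 to 0.253, and not every library correlated best with its own number. The design has 3 and 5 libraries, so a single-value exact test cannot go below 0.0357.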
